A study of Mus musculus with 12 samples.

Results

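The gene for PD-L1, Cd274, was followed with 5 genes that act on it: Irf1, Irf2, Irf2bp2, Cmtm6 and Cmtm4. These 6 genes were chosen by name for their known roles, with earlier results of these data known. They were found by symbol among the 12584 genes of the deposited expression table. The cells were CT26, a mouse colon carcinoma line, which had been exposed for 24 h to PBS or to 1 of 3 preparations labelled NP-D@MP, NP-D@M or NP@M, with 3 libraries per group. The labels do not spell out these treatment names; the series title speaks of a nanodrug in a coat of engineered cancer cell membrane, directed at CDKs, for use with PD-L1 antibody. PBS is a buffered saline and served as the untreated group. The libraries are numbered N1 to N3 for PBS, N4 to N6 for NP@M, N7 to N9 for NP-D@M and N10 to N12 for NP-D@MP. Whether the 3 libraries of a group stem from independent cultures is not stated in the labels, and the p-values therefore reflect the spread between these libraries alone, which may be technical. RNA came from bulk cells of a single line, so fewer cells of a type and less RNA per cell cannot be told apart.

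PD-L1 is a membrane protein that binds the receptor PD-1 on T cells and restrains them, and tumour cells are well known to carry it. Interferon gamma is the classical inducer of its gene: the receptor chains Ifngr1 and Ifngr2 pass the signal through the kinases Jak1 and Jak2, Irf1 is switched on, and IRF1 binds the promoter of Cd274. IRF2 recognises much the same DNA element as IRF1 and can compete with it, and IRF2BP2 is a corepressor that partners with IRF2. After translation, CMTM6 holds PD-L1 at the cell surface and spares it from lysosomal breakdown, and CMTM4, its closest relative, can do the same.

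Letters that match parts of such sites can be read in the promoters of the 3 genes below. They are shown because Cd274 is the target and Irf1 and Irf2 are the factors. Each is the 250 bases before the RefSeq start on GRCm38.p6, at chr19:29367188-29367437 (plus strand) for Cd274, chr11:53769764-53770013 (plus strand) for the first of the pair of Irf1 promoters and chr8:46739495-46739744 (plus strand) for Irf2. Capitals mark matches, on either strand, to AANNGAAA (an IRF element), a tandem element (GAAA, then NN, then GAAA) or TTCNNNGAA (a GAS element, a site of the interferon gamma response). AANNGAAA is only part of a full IRF site, and the name IRF element stands for these letters alone here.
Cd274 promoter: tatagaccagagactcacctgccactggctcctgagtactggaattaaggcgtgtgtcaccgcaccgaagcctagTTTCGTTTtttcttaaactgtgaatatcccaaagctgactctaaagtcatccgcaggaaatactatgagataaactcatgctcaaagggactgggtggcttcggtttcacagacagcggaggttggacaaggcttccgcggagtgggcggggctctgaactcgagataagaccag
Irf1 promoter: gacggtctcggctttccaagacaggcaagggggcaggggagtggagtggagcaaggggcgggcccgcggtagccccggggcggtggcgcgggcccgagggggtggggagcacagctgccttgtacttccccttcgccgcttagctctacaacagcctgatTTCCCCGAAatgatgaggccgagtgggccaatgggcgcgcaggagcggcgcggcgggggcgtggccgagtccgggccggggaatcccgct
Irf2 promoter: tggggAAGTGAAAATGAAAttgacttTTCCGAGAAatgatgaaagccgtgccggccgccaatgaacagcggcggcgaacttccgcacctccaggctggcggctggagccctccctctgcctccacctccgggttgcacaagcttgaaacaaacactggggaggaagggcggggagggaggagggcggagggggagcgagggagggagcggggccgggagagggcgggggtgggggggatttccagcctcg
The window of Cd274 held 1 IRF element, AAACGAAA on the minus strand, 175 to 168 bases before the start. That of Irf1 held 1 GAS element, TTCCCCGAA, 90 to 82 bases before the start, and no IRF element. In Irf2, IRF elements began 245 and 239 bases before the start and overlapped each other and the tandem element GAAAATGAAA, and a GAS element, TTCCGAGAA, lay 224 to 216 bases before it. Among the windows of the other genes, that of Cmtm6 held 1 IRF element, and those of Cmtm4, Irf2bp2 and the second Irf1 promoter held none of the 3 motifs. Such letters are common: of 32851 mouse promoter windows of the same length, 21.3% held AANNGAAA, 2.98% held the tandem element and 7.02% held TTCNNNGAA. These matches describe the letters of the reference and are not evidence of binding.

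The expression values were FPKM, reads divided by gene length and by a library size that the authors set. Whole reads could be recovered from every value, and both are given here because Cd274 was low. The reads in the table summed to 12.8 to 15.7 M (mega-reads) per library. The authors' divisor, by contrast, was 28.2 to 31.1 M for PBS and NP@M, here called the libraries without D, and 7.13 to 8.40 M for NP-D@M and NP-D@MP, the libraries with D. No source used here gives its origin. A gene with an equal share of the table's reads therefore has a higher FPKM in the libraries with D. For this reason each change is also given after rescaling every library to its own table reads, called the table scaling here, and ratios of genes within a library, which no scaling touches, are given as well. Library N9 of NP-D@M stood apart from N7 and N8, with a chi-square per degree of freedom of 44.7 and 57.7 against them, where the other pairs within groups had 6.93 to 17.4.

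In both comparisons of libraries with and without D, Cd274, Irf1, Irf2, Irf2bp2 and Cmtm6 fell and Cmtm4 rose in FPKM. Irf1 fell by the largest ratio of mean FPKM of the 6 genes, 15.5-fold in NP-D@M against NP@M and 13.7-fold in NP-D@MP against PBS. On the reads, voom gave Cd274 a log2 change of -4.34 and Irf1 one of -4.11 in NP-D@M against NP@M, so which of the pair fell further there depended on the measure. In both comparisons the groups of all 6 genes did not overlap, as was so for 87.3% and 93.0% of all tested genes. The share of all genes that separate every library with D from every library without it is not given here. Where such a separation is stated below, it describes the gene and does not set it apart from others. The counts of 5 lower and 1 higher of 6 stand against a background in which limma (adjusted p under 0.05) called 89.5% of the 10101 tested genes in NP-D@M against NP@M (47.7% lower and 41.8% higher). In NP-D@MP against PBS it called 90.5% (47.3% lower and 43.2% higher). Cd274, Irf1 and Irf2 reached the 1 FPKM of the filter only in libraries without D (Cd274 in 3 of them), so genes this low were tested because they were higher there, and the counts of members describe them and support nothing further. With nearly all genes called, that a member passed the test sets it apart from few others, and the sizes carry more information. The median log2 change of all tested genes was -0.19 and -0.16 in these comparisons, and -1.46 in both under the table scaling. There, all 6 genes were called lower, and the background was 88.0% and 88.3% of genes called, with 70.5% and 70.7% lower.

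**Figure D1:**
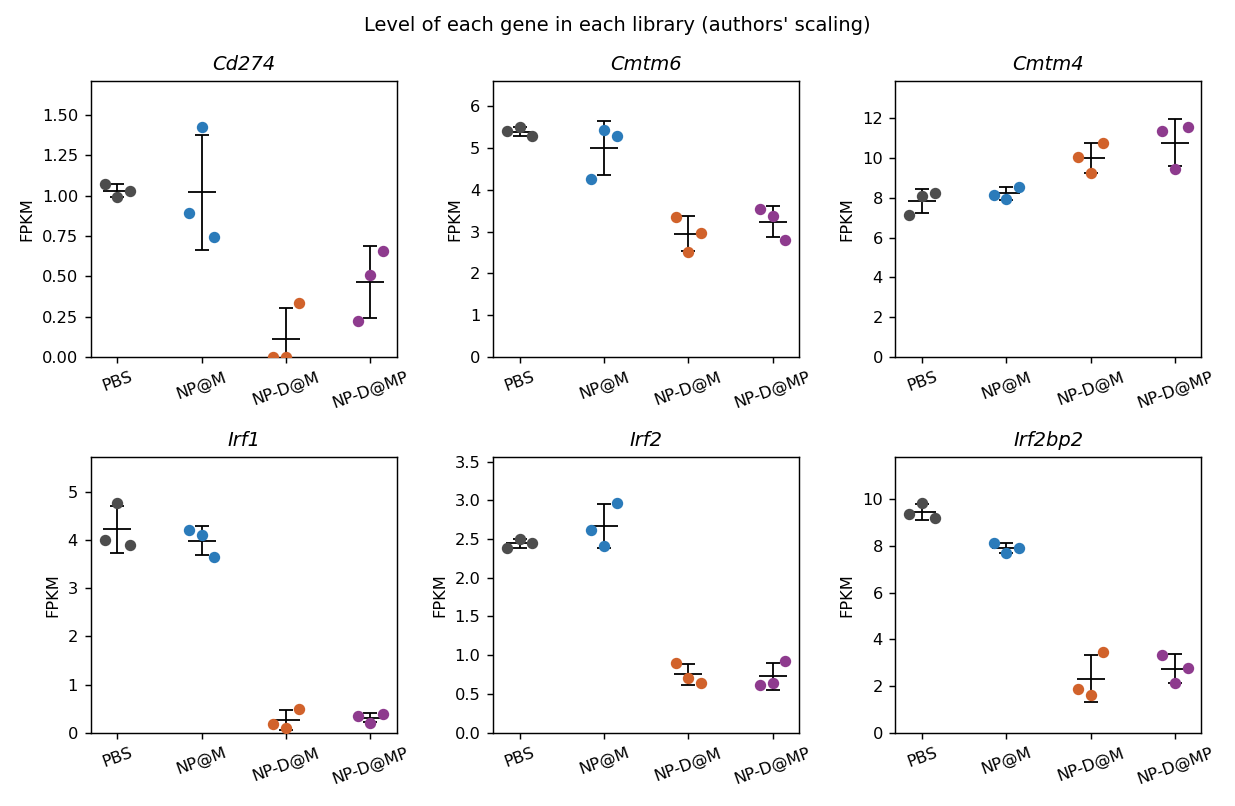
FPKM of each of the 6 genes (vertical axes, each starting at 0) in the 3 libraries of each of the 4 groups (horizontal axis); points are libraries and bars are group means. Irf1, Irf2, Irf2bp2 and Cmtm6 sit lower in every library with D than in any without it, Cd274 reaches 0 in libraries N7 and N8, and Cmtm4 sits higher with D.

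Cd274 (ENSMUSG00000016496) lies on GRCm38 at chr19:29367455-29388095 on the plus strand and has up to 7 exons. Its RNA gave 119, 110 and 105 reads in PBS and 99, 153 and 84 reads in NP@M, against 0, 0 and 10 reads in NP-D@M and 6, 14 and 17 reads in NP-D@MP. In FPKM these were 1.07, 0.990 and 1.03 in PBS, 0.891, 1.43 and 0.746 in NP@M, 0, 0 and 0.336 in NP-D@M, and 0.222, 0.510 and 0.658 in NP-D@MP. Every library with D lay below every library without it, and the 10 reads of NP-D@M all came from N9, the library that stood apart. A count of 0 still allows 3 reads, which is 0.0987 FPKM in N7 and 0.114 FPKM in N8, where it is 0.0267 to 0.0294 FPKM in the libraries without D; these limits cover counting error only. The gene was near the low end of what was tested, and its level rested on few reads in the libraries with D.

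Mean Cd274 was 1.02 ± 0.358 FPKM (SD, n = 3) in NP@M and 0.112 ± 0.194 FPKM (n = 3) in NP-D@M, a 9.11-fold difference with a log2 change of -0.86 (SE 0.159, limma adjusted p = 0.0003). All log2 changes here were taken on log2(FPKM + 1), so that for a gene this low they are smaller than the fold, which is the ratio of mean FPKM. Without N9 the log2 change was -1.0 (limma adjusted p = 0.000115). In NP-D@MP the mean was 0.463 ± 0.222 FPKM (n = 3) against 1.03 ± 0.0397 FPKM (n = 3) in PBS, 2.22-fold lower, with a log2 change of -0.48 (SE 0.159, limma adjusted p = 0.013). This second call was lost without N10 (-0.36, limma adjusted p = 0.0597), on the reads with voom (-1.23, adjusted p = 0.0597) and with quantile normalization (0.051, limma adjusted p = 0.787), which also took the first to -0.38 (limma adjusted p = 0.0547). Under the table scaling the log2 changes of Cd274 were -1.49 and -1.29 (limma adjusted p = 6.72e-07 and 2.79e-06), close to the median of all genes there. A gene at so low a level can fall little further once 1 FPKM is added to each value, so its place among all genes is not read from this scale.

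Irf1, the interferon-induced activator, lies at chr11:53770014-53778374 on the plus strand. It gave 488, 583 and 437 reads in PBS and 515, 483 and 451 reads in NP@M, against 6, 3 and 16 reads in NP-D@M and 10, 6 and 11 reads in NP-D@MP. The libraries with D were close to empty of Irf1 reads, far from any library without it. FPKM went from 3.99 ± 0.301 (n = 3) in NP@M to 0.258 ± 0.205 (n = 3) in NP-D@M, a log2 change of -2.00 (SE 0.124, limma adjusted p = 2.54e-08). PBS held 4.23 ± 0.483 FPKM (n = 3) and NP-D@MP 0.308 ± 0.0977 FPKM (n = 3), again a log2 change of -2.00 (limma adjusted p = 2.52e-08). Only 5.95% of the tested genes had a lower change than Irf1 in NP-D@M against NP@M, and 10.1% under the table scaling, where the change was -2.97. On that scaling Irf1 was still 1.51 lower on the log2 scale than the median of all genes. The 1 FPKM added to each value also bounds how far a gene at the level of Irf1 can fall. Irf1 was tested through libraries without D alone, so its place among all genes is a description only.

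Irf2, the factor that shares the IRF1 element, lies at chr8:46739732-46847458 on the plus strand. Its reads were 542, 567 and 511 in PBS and 594, 528 and 682 in NP@M, then 56, 38 and 39 in NP-D@M and 34, 36 and 49 in NP-D@MP. No library with D reached the lowest library without it. Irf2 fell 3.55-fold from NP@M (2.66 ± 0.282 FPKM, n = 3) to NP-D@M (0.751 ± 0.135 FPKM, n = 3), with a log2 change of -1.07 (SE 0.101, limma adjusted p = 1.05e-06). From PBS (2.45 ± 0.0571 FPKM, n = 3) to NP-D@MP (0.729 ± 0.174 FPKM, n = 3) it fell 3.36-fold, with a log2 change of -1.0 (limma adjusted p = 1.83e-06). Under the table scaling its changes were -2.15 and -2.08, lower than the median of all genes by 0.69 and 0.62.

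Irf2bp2, the corepressor, lies at chr8:126588296-126593986 on the minus strand. It gave 1459, 1535 and 1315 reads in PBS, 1265, 1160 and 1248 in NP@M, 79, 59 and 144 in NP-D@M and 127, 82 and 100 in NP-D@MP. N9 held the most reads of the libraries with D, but was far below every library without it. Its mean was 7.91 ± 0.204 FPKM (n = 3) in NP@M and 2.30 ± 1.00 FPKM (n = 3) in NP-D@M, 3.44-fold lower, with a log2 change of -1.47 (SE 0.180, limma adjusted p = 9.98e-06). The fall from PBS (9.47 ± 0.346 FPKM, n = 3) to NP-D@MP (2.74 ± 0.607 FPKM, n = 3) was 3.45-fold, with a log2 change of -1.50 (limma adjusted p = 8.80e-06). The corresponding changes under the table scaling were -2.90 and -3.01.

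Cmtm6, which keeps PD-L1 at the surface, lies at chr9:114731116-114749344 on the plus strand. Reads were 571, 581 and 512 in PBS, 450, 555 and 565 in NP@M, 97, 63 and 84 in NP-D@M and 91, 88 and 69 in NP-D@MP. The groups with and without D did not overlap. Cmtm6 fell 1.69-fold from 5.0 ± 0.642 FPKM (n = 3) in NP@M to 2.95 ± 0.418 FPKM (n = 3) in NP-D@M, with a log2 change of -0.60 (SE 0.113, limma adjusted p = 0.00035). From PBS (5.40 ± 0.112 FPKM, n = 3) to NP-D@MP (3.24 ± 0.380 FPKM, n = 3) it fell 1.67-fold, with a log2 change of -0.60 (limma adjusted p = 0.00037). With quantile normalization the first of these was not called (-0.27, limma adjusted p = 0.0556). The fall was smaller in fold than those of the IRF genes in FPKM, and it was -2.05 and -2.10 under the table scaling.

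Cmtm4, the relative of Cmtm6, lies at chr8:104348191-104395807 on the minus strand and was the only one of the 6 genes with a higher FPKM in the libraries with D. In FPKM it was 7.13, 8.11 and 8.25 in PBS and 8.16, 7.95 and 8.57 in NP@M, against 10.1, 9.25 and 10.8 in NP-D@M and 11.3, 9.43 and 11.6 in NP-D@MP. In reads, however, it went from 1694 to 2059 per library without D to 519 to 683 with it. Its rise was 1.22-fold from NP@M to NP-D@M, with a log2 change of 0.26 (SE 0.101, limma adjusted p = 0.0313), and 1.38-fold from PBS to NP-D@MP, with a log2 change of 0.41 (limma adjusted p = 0.00222). Under the table scaling the direction flipped, to -1.40 and -1.29, with limma adjusted p = 2.89e-08 and 6.27e-08. In NP-D@M against NP@M the rise also missed the threshold without N4, N5, N7 or N9, with 0.21 to 0.25 as log2 change and limma adjusted p up to 0.0928. The direction of Cmtm4 thus depended on the library size used. In NP-D@M against NP@M it stood near the middle of all genes under either scaling. It was above the median by 0.45 in FPKM and by 0.06 under the table scaling, where 55.5% and 51.4% of tested genes had a lower change.

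**Figure D2:**
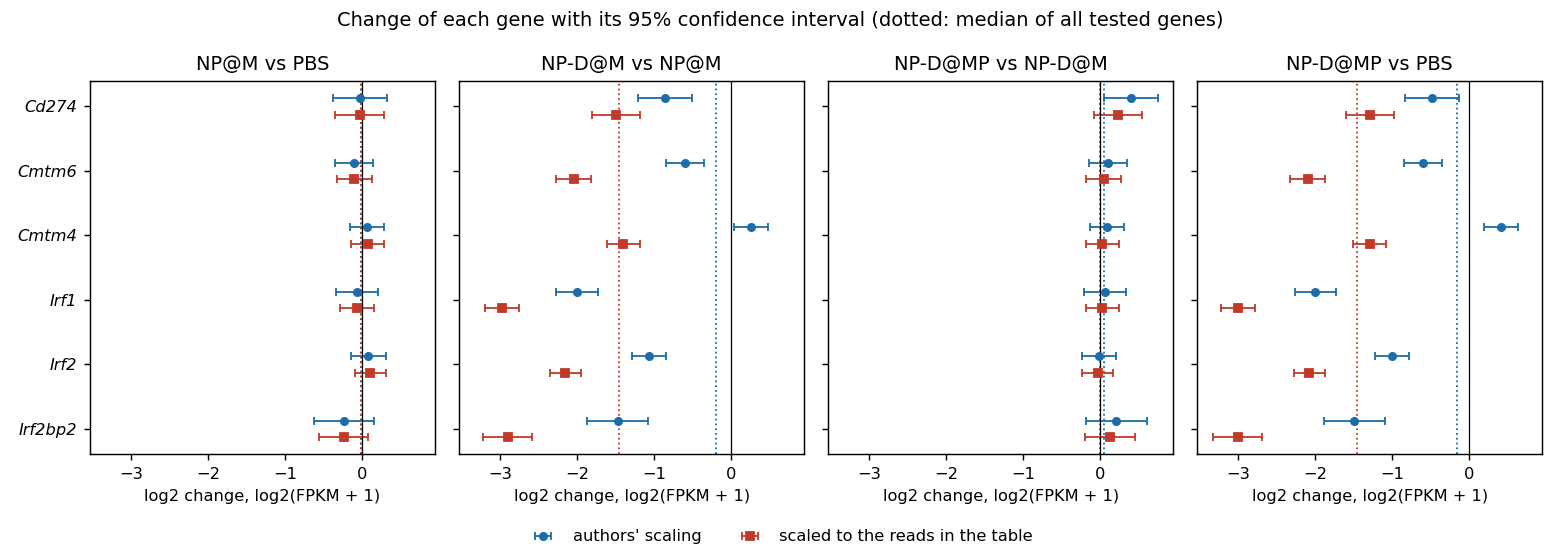
Log2 change of each of the 6 genes, on the log2(FPKM + 1) scale, in the 4 comparisons (panels), with 95% confidence intervals, under the authors' scaling and under the table scaling; dotted lines are the median of all tested genes under each scaling. Irf1 is the lowest of the 6 under the authors' scaling in both comparisons with D against without D (-2.00 in each), and Cmtm4 changes sign between the scalings (0.26 and -1.40 in NP-D@M vs NP@M).

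Ratios within a library do not depend on either library size, so they show how the 6 genes shifted against each other. They were formed from reads per kilobase with 0.5 reads added, in 6 libraries with D against 6 without, and tested with a two-sided exact permutation test whose smallest possible p is 0.00216; p-values were adjusted by Benjamini-Hochberg over the 5 ratios. Grouping by D pools NP-D@M with NP-D@MP and NP@M with PBS. Either pair of groups alone, 3 libraries against 3, cannot go below an exact permutation p of 0.1. The 6 genes were chosen with earlier results known, and Cd274, Irf1 and Irf2 passed the filter through libraries without D alone. How many other gene pairs separate as fully is not given here. The p-values of the ratios therefore describe these pairs and support nothing further.

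Irf1 lost ground to both Irf2 and Irf2bp2. The ratio of Irf2 to Irf1 was 0.523 to 0.629 in PBS and 0.588 to 0.813 in NP@M, but 1.29 to 5.91 in NP-D@M and 1.77 to 3.02 in NP-D@MP. Irf1 was above Irf2 in every library without D and below it in every library with D. The ratio was on average 4.43-fold higher with D (exact permutation p = 0.00216, adjusted p = 0.00361). Irf2bp2 to Irf1 went from 2.06 to 2.35 in PBS and 1.88 to 2.16 in NP@M up to 6.85 to 13.3 in NP-D@M and 6.84 to 9.93 in NP-D@MP. The ratio of Irf2bp2 to Irf1 was thus 4.31-fold higher with D, with no overlap (exact permutation p = 0.00216, adjusted p = 0.00361).

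The 2 CMTM genes moved apart in the same way under any scaling. Cmtm4 to Cmtm6 was 1.32 to 1.56 in PBS, 1.46 to 1.91 in NP@M, 2.99 to 3.64 in NP-D@M and 2.78 to 4.09 in NP-D@MP. It was 2.17-fold higher with D, and the libraries with and without D did not overlap (exact permutation p = 0.00216, adjusted p = 0.00361).

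The ratios that hold Cd274 were far less certain. Cd274 to Cmtm6 was 0.180 to 0.199 in PBS and 0.142 to 0.262 in NP@M, with 0.00487 to 0.118 in NP-D@M and 0.0675 to 0.239 in NP-D@MP. It was on average 4.15-fold lower with D (exact permutation p = 0.0346, adjusted p = 0.0433), but the ranges overlapped and the call was lost without any 1 library other than N6, N11 and N12, with adjusted p up to 0.0866. Cd274 to Irf1 did not pass, at 2.20-fold higher with D (exact permutation p = 0.173, adjusted p = 0.173). In NP-D@M it was 0.0844 to 0.699 and in NP-D@MP 0.680 to 2.45, against 0.205 to 0.349 in the libraries without D. N9, N10, N11 and N12 were above every library without D. N7 and N8 came out below them, at 0.0844 and 0.157, but Cd274 had 0 reads there and Irf1 only 6 and 3. These values were set largely by the 0.5 reads added, so the side on which N7 and N8 lie is not known. The lowest values of Cd274 to Cmtm6 in NP-D@M rest on the added reads too. For Cd274 to Irf1 the log2 difference was -0.24 for NP-D@M against NP@M, which rests in part on N7 and N8. It was 2.52 for NP-D@MP against PBS, and without N7 the pooled ratio passed (1.68, exact permutation adjusted p = 0.0379).

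**Figure D3:**
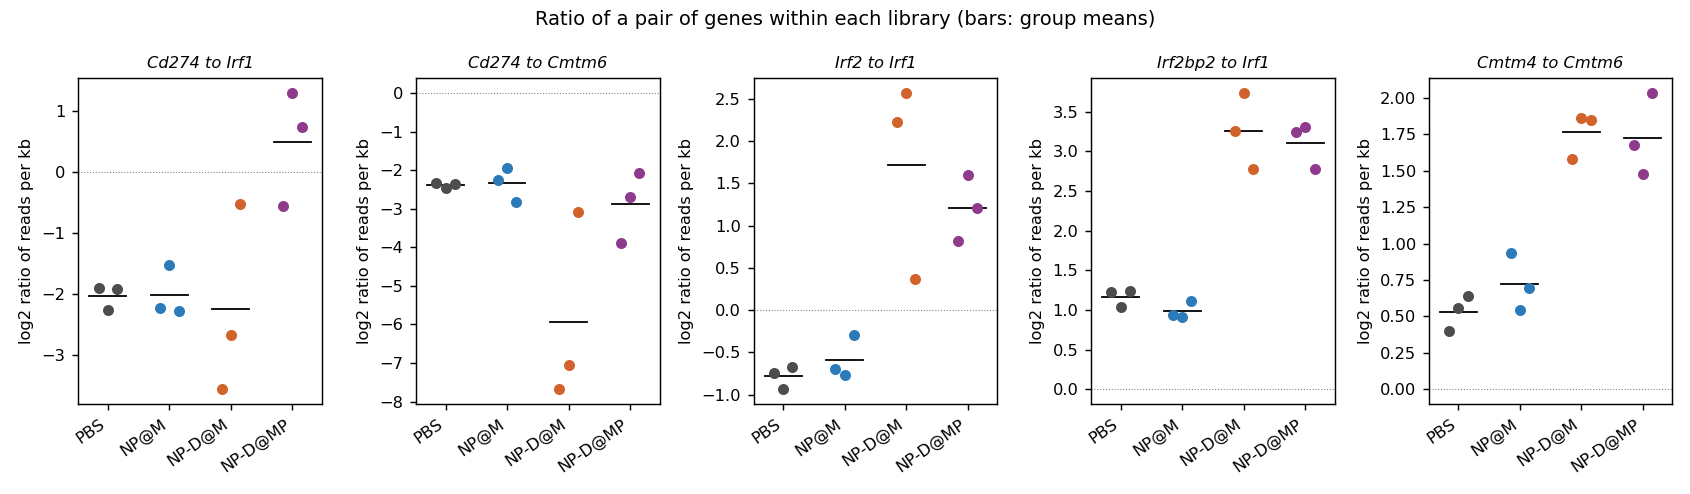
Log2 ratio of reads per kilobase of a pair of genes (vertical axes) in each library of the 4 groups (horizontal axes); points are libraries and bars are group means. Irf2 to Irf1, Irf2bp2 to Irf1 and Cmtm4 to Cmtm6 are higher in all 6 libraries with D than in any of the 6 without, and the Cd274 ratios scatter widely with D.

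The order of the 6 levels, per length and in FPKM, changed accordingly. In PBS it ran Irf2bp2, Cmtm4, Cmtm6, Irf1, Irf2 and Cd274, and no neighbours in it overlapped. In NP@M the order was the same but for the first pair, Cmtm4 and Irf2bp2, which overlapped. In NP-D@M Cmtm4 led, followed by Cmtm6 and Irf2bp2, which overlapped, then Irf2, and last Irf1 and Cd274, which overlapped. NP-D@MP began likewise, and its last 3 genes, Irf2, Cd274 and Irf1, overlapped their neighbours.

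Between NP@M and PBS none of the 6 genes passed. limma called 0 of 6, with 0 at an unadjusted p under 0.05, and voom on the recovered reads called 0; the background was 0.0099% of genes called. Adjusted p ran from 0.625 to 0.974. The level of Irf2bp2 was 7.71 to 8.12 FPKM in NP@M and 9.19 to 9.85 FPKM in PBS, without overlap, but its log2 change of -0.23 (95% interval -0.63 to 0.16) did not pass (limma adjusted p = 0.625), and 28.4% of all tested genes had groups that did not overlap. For Cd274 the 95% interval of the log2 change was -0.37 to 0.33, so the data are compatible with any change in that range. For a gene this low, a change on this scale is smaller than the fold in FPKM.

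The labels of NP-D@MP and NP-D@M differ by P alone, and between them none of the 6 genes passed either. limma called 0 of the 6 genes, with 1 at an unadjusted p under 0.05, and voom called 0, against a background of 0.0495% of genes called and 17.0% at an unadjusted p under 0.05. The 1 gene was Cd274, with 37 reads over the group of NP-D@MP and 10 over that of NP-D@M, 4.13-fold in mean FPKM. Its log2 change was 0.40 (95% interval 0.05 to 0.75, limma adjusted p = 0.260) and its groups overlapped. This comparison turned on N9: without it limma called 1259 genes in place of 5, Cd274 had a log2 change of 0.54 (limma adjusted p = 0.0485) and Irf2bp2 one of 0.45 (limma adjusted p = 0.0459). For Irf1 the interval was -0.21 to 0.34, for Irf2 -0.24 to 0.20, for Cmtm6 -0.15 to 0.35 and for Cmtm4 -0.13 to 0.31.

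The other genes of the pathway came from 8 lists, written by known role and with earlier results of these data known. They held 89 tested genes beside the 6. In NP-D@M against NP@M limma called 31 higher and 54 lower, where 89.5% of all tested genes were called (47.7% lower and 41.8% higher). In NP-D@MP against PBS it called 31 higher and 51 lower, where 90.5% of all tested genes were called (47.3% lower and 43.2% higher). In NP@M against PBS it called 0 of the 89, with 9 at an unadjusted p under 0.05, where all tested genes had 10.8%, and 0 by voom. In NP-D@MP against NP-D@M it also called 0, with 16 at an unadjusted p under 0.05 (17.0% of all tested genes) and 0 by voom. The values below are therefore for NP-D@M against NP@M unless stated. The counts of each list stand beside the shares above, and beside 70.5% of all tested genes called lower under the table scaling. Ifngr1, Socs1, Irf9 and Tap1, among others, stayed below 1 FPKM in every library with D. Like Cd274, they were tested through libraries without D alone. Their p-values and the list counts that hold them are therefore a description and support nothing further.

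Of 17 genes of interferon signalling, 13 fell and 4 rose, with a median log2 change of -0.88 against -0.19 for all genes. Under the table scaling all 17 were called lower, as were 70.5% of all tested genes. Ifngr1, the ligand-binding chain of the receptor, was at 6.72 ± 0.979 FPKM (n = 3) in NP@M, with 509 to 687 reads per library, and had 1 read in all of NP-D@M. NP-D@MP held 0 to 10 Ifngr1 reads per library, and Ifngr1 fell in both comparisons (log2 change -2.92 and -2.46 against NP@M and PBS, limma adjusted p = 2.58e-09 and 1.10e-08). Ifngr2, the second chain, fell less, from 2.26 to 1.36 FPKM (log2 change -0.47, limma adjusted p = 0.00113). Jak2 fell 8.54-fold, from 8.55 to 1.00 FPKM (limma adjusted p = 1.78e-07), and Stat3, a transcription factor downstream of cytokine receptors, fell 2.45-fold. Jak1 rose 1.97-fold in FPKM (limma adjusted p = 2.33e-05) but was called lower, at -0.81, under the table scaling. Socs1, the feedback inhibitor, fell 5.38-fold from a mean of only 0.971 FPKM.

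In the IRF family, which includes Irf1, Irf2 and Irf2bp2, 7 of 8 tested genes fell and 1 rose under either scaling, with a median log2 change of -1.41. The gene that rose was Irf7, the interferon-induced factor of the type I response, from 2.08 ± 0.418 (n = 3) to 19.8 ± 4.38 FPKM (n = 3), 9.55-fold (limma adjusted p = 3.28e-08), and by 1.23 on the log2 scale under the table scaling. Irf3, which acts with Irf7, fell 3.52-fold, and Irf9, the DNA-binding part of the ISGF3 complex, fell 7.06-fold. The relatives of Irf2bp2 fell with it, Irf2bp1 by 8.63-fold and Irf2bpl by 3.06-fold. Of 5 tested CMTM family genes 4 were called higher and 1, Cmtm6, lower in FPKM; with the other scaling, 1 was higher and 4 were lower. The 1 was Cmtm3, which went from 12.1 ± 0.858 (n = 3) to 57.6 ± 5.43 FPKM (n = 3), 4.75-fold, and by 0.40 on the log2 scale under the table scaling (limma adjusted p = 0.00254). Cmtm7 rose 1.31-fold in FPKM (limma adjusted p = 0.0368), with overlapping groups, and was at -1.15 on the other scaling.

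Of 14 other transcription regulators of Cd274, 12 fell and 2 rose, with a median log2 change of -1.51. Hif1a, the hypoxia factor, fell 3.97-fold, Rela, a subunit of NF-kB, 2.97-fold and Myc 1.82-fold, all also lower under the table scaling. Among 11 genes of RNA turnover 10 fell and none rose; Zfp36, which speeds decay of AU-rich RNAs, fell 2.56-fold and Elavl1, which stabilises them, 1.77-fold.

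The list of PD-L1 protein modification, turnover and traffic, which holds Cmtm6 and Cmtm4, had 14 genes higher and 12 lower of 28; under the table scaling these became 3 and 22. The kinase gene Cdk5 rose 10.03-fold, from 7.09 to 71.1 FPKM (limma adjusted p = 7.39e-10), and by 1.43 on the log2 scale under the table scaling. Gsk3b, a kinase that marks PD-L1 for degradation, fell 3.23-fold under the authors' scaling and fell under the other too. Among the ubiquitin genes, Spop, an adaptor of the CUL3 ligase, rose 2.24-fold in FPKM, Stub1, the ligase CHIP, rose 5.29-fold and Cops5, the deneddylase of the COP9 signalosome, rose 2.41-fold. Hip1r, which routes PD-L1 to lysosomes, rose 2.94-fold in FPKM. Under the table scaling, Spop was at -0.65 and Cops5 at -0.54, both called lower, while Stub1 (0.48) and Hip1r (-0.23) did not pass.

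Known targets of IRF1 other than Cd274 moved in both directions. Of 13 tested, 9 rose and 3 fell, with a median log2 change of 1.84, and under the table scaling the counts were 6 and 5. Tap1, the peptide transporter of antigen presentation, fell 20.5-fold, from 3.46 to 0.169 FPKM (limma adjusted p = 2.32e-08). B2m, the light chain of MHC class I, rose 8.84-fold, from 663 to 5859 FPKM (limma adjusted p = 9.69e-11), and by 1.31 on the log2 scale on the other scaling. Cd80, which can bind PD-L1, fell 2.12-fold. All 3 tested genes of the PD-1 list were lower, but Cd274 itself and Cd80 were among these. Cmtm8, Pdcd1lg2, Psmb9 and Nlrc5 were not analysed here.

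**Figure D4:**
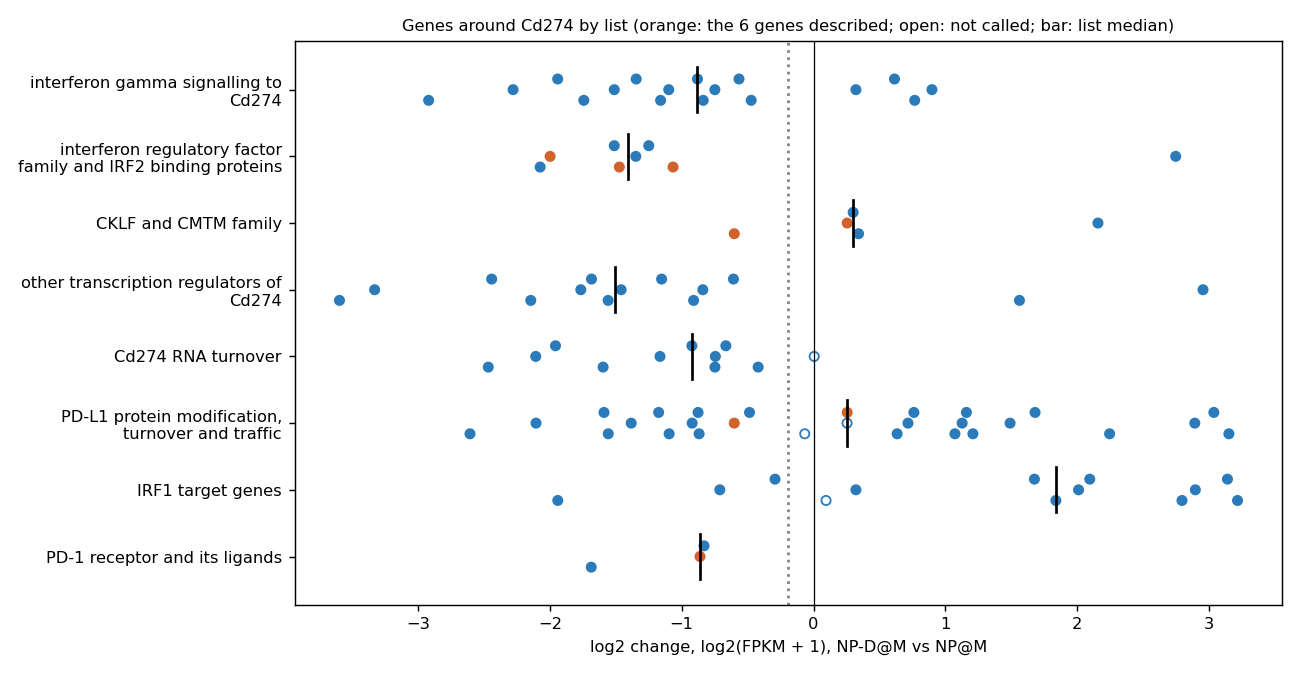
Log2 change on the log2(FPKM + 1) scale in NP-D@M vs NP@M (horizontal axis) of each tested gene of the 8 lists (vertical axis); orange points are the 6 genes described, open points were not called, and bars are list medians. The interferon signalling and IRF lists lie mostly to the left of 0 (medians -0.88 and -1.41) and the IRF1 targets mostly to the right (median 1.84).

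The genes beside Cd274 on chromosome 19 were looked at as well, 3 on each side among those in the table. Jak2, 54.4 kb before it, fell as given above, and Rcl1, further out, fell from 11.5 ± 1.71 (n = 3) to 2.81 ± 1.84 FPKM (n = 3, log2 change -1.83, limma adjusted p = 0.000112). After Cd274, Ric1, Ermp1 and 9930021J03Rik fell by 0.63, 0.45 and 0.71 on the log2 scale. Gm5518 rose by 0.62 on the log2 scale (limma adjusted p = 0.00763).

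The tested genes most like Cd274 over the 12 libraries, by Pearson's r of log2(FPKM + 1), were Zfp697 (0.956), AW209491 (0.951), Gm26779 (0.946), Marcks (0.945) and Arid1b (0.940). Of 10100 other tested genes, 169 (1.67%) had r above 0.9. These values are a description: the points share the step between libraries with and without D and its library sizes. That step by itself raises r for genes that are low with D. Among the 6 genes r was highest between Irf1 and Irf2bp2 (0.980) and between Irf1 and Irf2 (0.972), while Cd274 had 0.865 with Irf1 and 0.811 with Cmtm6.

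Immune cells also make PD-L1, so markers of other cell types were read alongside. Of 11 myeloid markers 5 were in the table; Ptprc, the common leukocyte antigen, had 0 reads in PBS and NP@M, 9 in all of NP-D@M and 6 in all of NP-D@MP. The summed level of the 5 was 8.88 to 10.7 FPKM in PBS, 10.05 to 10.6 in NP@M, 12.5 to 24.8 in NP-D@M and 18.0 to 26.05 in NP-D@MP. Its members went different ways from NP@M to NP-D@M: Cd14 fell from 7.30 to 4.40 FPKM (limma adjusted p = 0.0363), while Cd68 rose from 2.38 to 12.5 FPKM and Lyz2 from 0.637 to 2.44 FPKM. Under the table scaling Cd14 was called lower (14.6 to 2.47), and Cd68 (4.74 to 6.99) and Lyz2 (1.27 to 1.36) were not called. Fibroblast markers, 6 of 8 in the table and led by collagens, summed to 70.6 to 86.6 FPKM without D and 11.1 to 15.4 FPKM with D. Most of this sum was Col1a2, at 54.3 FPKM in NP@M and 9.25 FPKM in NP-D@M. All 4 tested members were called lower in NP-D@M against NP@M. Of those too low to be tested, Pdgfra went from 0.536 to 0.372 FPKM, while Dcn went the other way, from 0.0544 to 0.355 FPKM. The part of RNA from such cells in the values of the 6 genes was not tested. None of the 10 lymphocyte markers was analysed here, and 1 of 12 retina markers (looked up because the extraction text speaks of retinas) was in the table. Of 7 colon epithelium markers 2 were, Krt18 and Krt20, so the labelled cell type could be checked only in part. Reads shared with other genes also bear on the members: antisense or opposite-strand genes touch exons of Cd274 (AC119228.1), Irf1 (Gm17334) and Irf2bp2 (Gm26759), no source used here gives the strand setting of the counting, and 12.4%, 1.24% and 19.7% of the 50-base words of these 3 genes occur in other genes, against 0% for Irf2, Cmtm6 and Cmtm4.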

How the data were processed

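The members and the gene lists, as well as the settings tried, were chosen with earlier results of these data known. The authors deposited 1 table of FPKM values and gene lengths in bases for 12584 genes; the gene counter, the strand setting and the choice of genes are not given in the sources used here. Per the submitters' processing notes, Bowtie 0.12.2 and mm8 were used. However, GENCODE M21 of GRCm38 held 12580 of the identifiers, and 12113 of these had the same start and end, so coordinates are those of GRCm38. Per the labels, libraries were made with an Illumina TruSeq kit.

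FPKM times gene length was a whole multiple of 1 step per library for 100% of values (relative tolerance 1e-06), which gave the reads and the library size. The step does not show how the reads were counted.

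limma 3.58.1 in R 4.3.3 was fitted to log2(FPKM + 1) of all 12 libraries, without covariates, for 10101 genes with at least 1 FPKM in at least 3 libraries; calls were made at an adjusted p under 0.05 (Benjamini-Hochberg). All 6 members passed this filter, Cd274, Irf1 and Irf2 through libraries without D alone. The steps were tested on simulated data. For limma these held far fewer changed genes than the real data, so they check the steps and lend the calls no support. No column of samples was left unmapped. Replicate libraries differed by more than sampling noise, and each was counted as a separate sample. The floor for a count of 0 was 3 reads.

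Genes named are the 6 members, 33 genes fixed by name for their role (29 in the table), the 5 most like Cd274, and the 3 neighbours on each side of Cd274, the latter chosen after the data were seen. Results for 2 of the 33 are not reported here. Promoters are from RefSeq on GRCm38.p6 and matched all 6 members by symbol. The comparisons NP-D@M vs NP@M and NP-D@MP vs PBS share no libraries. Alternatives were other scalings, filters, pseudocounts and tests, an adjusted p under 0.01, and leaving out each library.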

Additional observations from a re-analysis of the deposited data

How the results depend on the processing

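Of 33 results, Irf1, Irf2 and Irf2bp2 kept direction and call in both comparisons with D against without D under every alternative that gave a value; a mean of at least 5 FPKM leaves out the members below it. Cmtm4 reversed with the reads in the table as scale, by limma (-1.40 against NP@M and -1.29 against PBS) and by voom (-1.55 and -1.43), and with quantile normalization was -0.030 in the first (0.13, not called, in the second). Its NP-D@M call was also lost with a common median ratio (0.21), with only the 6 libraries compared (0.26, limma adjusted p = 0.0528) and at adjusted p under 0.01 (0.26). Quantile normalization took Cd274 to 0.051 in NP-D@MP vs PBS and, in NP-D@M vs NP@M, Cd274 to -0.38 and Cmtm6 to -0.27, neither called. Cd274 in NP-D@MP vs PBS was not called with a pseudocount of 0.1 (-1.09), with voom and the authors' library sizes (-1.23) or at adjusted p under 0.01 (-0.48). The cause was not tested.

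Genes called in NP@M vs PBS numbered 1, and 7 with quantile normalization, 4 with no filter, 0 with a mean of at least 5 FPKM, 2 with a pseudocount of 0.1, 2 with only the 6 libraries, and 0 and 70 with voom and the authors' or the table's sizes. Between the groups with D they numbered 5, and 2 with the table's reads as scale, 21 with no filter, 1 with a mean of at least 5 FPKM, 26 with a pseudocount of 0.1, 0 with only the 6 libraries, 0 with either voom and 3 at adjusted p under 0.01. With a mean of at least 5 FPKM, which leaves fewer genes to test, 4574 genes were called in place of 9037 for NP-D@M vs NP@M, and 4584 in place of 9144 for NP-D@MP vs PBS.

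Of the ratios (log2), Cd274 to Irf1 passed with 1 read added (1.42, exact permutation p = 0.0498). In N7 and N8 Cd274 had 0 reads, so its ratios there depend on the reads added. With 3 libraries against 3 no ratio can pass; for NP-D@M against NP@M and NP-D@MP against PBS they were -0.24 and 2.52 for Cd274 to Irf1, -3.61 and -0.49 for Cd274 to Cmtm6, 2.30 and 1.99 for Irf2 to Irf1, 2.27 and 1.94 for Irf2bp2 to Irf1, and 1.04 and 1.19 for Cmtm4 to Cmtm6.

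Leaving out each library in turn gave 1 to 2 for NP@M vs PBS genes called, 0.21 to 0.31 for Cmtm4 in NP-D@M vs NP@M, 3 to 1259 for NP-D@MP against NP-D@M genes called, 0.30 to 0.54 for Cd274 in NP-D@MP against NP-D@M, 0.058 to 0.45 for Irf2bp2 in NP-D@MP against NP-D@M, -0.58 to -0.36 for Cd274 in NP-D@MP vs PBS, 0.71 to 1.68 for Cd274 to Irf1 ratio and -2.52 to -1.40 for Cd274 to Cmtm6 ratio; the other called results kept their direction and call, and the other results stayed uncalled. The count between the groups with D was 3 without N1, 14 without N7 and 1259 without N9. No paired analysis was possible because the library numbers run from 1 to 12 and no groups share one.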
